A study of Homo sapiens with 8 samples.

Results

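The 11q13.1 gene cluster is a run of neighbouring genes on the long arm of human chromosome 11. Its 54 members were given by name, out of 18052 gene names that the guide library targeted, and run in chromosome order from ESRRA to DRAP1. The region was chosen by the gene values of these same libraries under each drug against untreated cells, so its shift under the drugs is a description with no test. By RefSeq gene order the members took places between 617 and 680 of the 1171 tested genes of chromosome 11, with 10 other tested genes lying between them. All 54 members passed the filter on low counts, with 209 of their 216 guides kept.

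The members were followed in a pooled knockout screen of PC9, a non-small cell lung cancer line with an activating EGFR mutation that had been made to express the Cas9 nuclease. The lentiviral TKOv3 library gives each cell a single guide, and the reads of a guide as a share of the library are taken as the share of cells that carry it. All 4 groups were PC9-Cas9 cells carrying this library, selected with puromycin: cells in 10 µM erlotinib for 72 h, cells in 0.1 µM osimertinib for 72 h, untreated cells in DMSO vehicle for 72 h, and cells taken when the drugs were added (T0). Each group had 2 libraries. Both drugs inhibit the EGFR kinase, and their doses differ. Per the methods, untreated cultures were passaged during the assay and live cells were collected at its end. The screen used a single cell line, and 1 arm of the study, with more osimertinib, was not analysed here. The labels do not say whether the cultures of a group stayed apart after infection, so part of the spread between its libraries may be technical. The empirical p-values of genes, defined below, were not set against that spread, whereas the tests of single guides were. Guide counts hold no cell type markers against which the line could be checked.

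This stretch of 11q13 is densely packed with genes of unrelated function. It holds MEN1, the tumour suppressor of multiple endocrine neoplasia type 1, next to housekeeping genes for ribosomes, splicing and the cytoskeleton, and next to genes used mainly in muscle, kidney, brain or blood cells. In a knockout screen, cells that lose a gene needed for growth become rarer with time.

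Total counts ran from 32096281 to 39200466 reads per library, with a median of 445 to 549 reads per guide. Gene values are the median log2 fold change (L2FC) of the guides of a gene minus that of non-targeting guides, which match no site in the genome. They are printed ± the SD between guides, with n guides. A gene was called when its empirical p, drawn from non-targeting guides and adjusted over 17761 tested genes, was under 0.05, which sets it against the spread of those guides and not against the spread between cultures. Levels are log2 abundances in 1 library, set against non-targeting guides and the mean of T0.

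Promoters are shown for RPS6KA4, the lowest member under both drugs, for TRMT112 and FAU, the highest under erlotinib, for ARL2, the lowest in untreated cells against T0, and for PRDX5, whose window overlaps that of TRMT112. RefSeq (GRCh38.p14) gave a promoter for 42 of the 54 members, from 250 bases before to 50 after the transcription start. Their median GC content was 67.7%, against 58.3% over all 27305 promoters, and their median number of CpG pairs was 28, against 14. The GC box GGGCGG, searched on both strands and so also as CCGCCC, was present in 37 of the 42 (88.1%) and in 44.6% of all promoters. CCAAT on either strand occurred in 33.3% of the members and in 35.7% of all, and TATAAA in none of the 42, against 11.95% of all. These matches describe the letters in the window and were not set against any measurement of binding. Capitals mark GC boxes, and in ARL2 a pair of matches overlaps. TRMT112 (chr11:64317941-64318240, minus strand) and PRDX5 (chr11:64317871-64318170, plus strand) face away from each other and share 230 bases of the window. FAU lies at chr11:65122085-65122384 (minus strand), ARL2 at chr11:65013910-65014209 (plus strand) and RPS6KA4 at chr11:64358912-64359211 (plus strand).
TRMT112: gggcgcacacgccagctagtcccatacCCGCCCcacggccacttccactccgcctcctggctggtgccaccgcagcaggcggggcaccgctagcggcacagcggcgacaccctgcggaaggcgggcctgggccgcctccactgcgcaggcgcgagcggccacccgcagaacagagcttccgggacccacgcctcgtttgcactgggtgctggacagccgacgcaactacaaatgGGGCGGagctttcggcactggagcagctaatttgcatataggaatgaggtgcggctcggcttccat
PRDX5: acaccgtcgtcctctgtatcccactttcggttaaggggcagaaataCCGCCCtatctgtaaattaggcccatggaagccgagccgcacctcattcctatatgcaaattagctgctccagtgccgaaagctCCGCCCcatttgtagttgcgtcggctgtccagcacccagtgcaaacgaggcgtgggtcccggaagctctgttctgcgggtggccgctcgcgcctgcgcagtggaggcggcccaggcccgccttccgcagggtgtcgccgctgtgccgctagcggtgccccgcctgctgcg
FAU: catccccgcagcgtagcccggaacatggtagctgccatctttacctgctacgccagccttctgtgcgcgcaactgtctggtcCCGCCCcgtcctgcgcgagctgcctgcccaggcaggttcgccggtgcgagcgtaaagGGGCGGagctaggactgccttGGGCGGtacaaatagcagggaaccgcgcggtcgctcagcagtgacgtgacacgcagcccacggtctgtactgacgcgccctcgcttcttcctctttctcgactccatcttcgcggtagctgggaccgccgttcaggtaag
ARL2: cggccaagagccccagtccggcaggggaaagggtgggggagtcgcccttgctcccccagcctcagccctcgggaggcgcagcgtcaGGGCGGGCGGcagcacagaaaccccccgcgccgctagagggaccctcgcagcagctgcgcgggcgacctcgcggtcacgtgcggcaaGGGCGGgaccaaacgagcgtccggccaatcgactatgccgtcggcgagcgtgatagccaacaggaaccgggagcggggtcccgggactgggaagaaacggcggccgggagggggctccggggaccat
RPS6KA4: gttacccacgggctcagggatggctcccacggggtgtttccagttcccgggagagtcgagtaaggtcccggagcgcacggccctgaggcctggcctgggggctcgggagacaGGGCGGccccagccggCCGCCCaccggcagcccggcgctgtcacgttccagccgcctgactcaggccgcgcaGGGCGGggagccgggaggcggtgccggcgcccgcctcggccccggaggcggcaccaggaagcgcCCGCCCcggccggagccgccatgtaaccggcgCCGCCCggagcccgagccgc

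The neighbours shifted down together under both drugs. The median member L2FC was -0.18 under erlotinib against untreated cells, and the median of all genes was 0.00. Under osimertinib it was -0.20, and that of all genes was 0.01. The members lay below the median of all genes in 46 of 54 cases under erlotinib and in 52 of 54 under osimertinib. Both comparisons share the untreated libraries, so they are not independent of each other.

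The shift was present in every drug library. The median level of the members relative to T0 was -0.37 and -0.37 in the erlotinib libraries, -0.44 and -0.42 in the osimertinib libraries and -0.16 and -0.19 in the untreated libraries. The groups with drug did not overlap the untreated group. Over all genes the same medians were -0.16 and -0.14 in the erlotinib libraries, -0.16 and -0.16 in the osimertinib libraries and -0.16 and -0.16 in the untreated libraries, so that the drug libraries stood close to the untreated ones. Of the members, 38 were lower in both erlotinib libraries than in both untreated ones (background over all genes 21.6%), and 41 were lower in both osimertinib libraries (background 25.8%). Members higher in both drug libraries numbered 3 for erlotinib (ZNHIT2, FAU and KAT5, background 27.8%) and 2 for osimertinib (FAU and KCNK7, background 24.7%).

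Called members fell on 1 side with few exceptions. Under erlotinib 22 of 54 members were called lower, where 4.75% of all genes were, and 2 were called higher, where 6.46% of all genes were. Under osimertinib 21 were called lower, where 4.47% of all genes were, and none was called higher, where 4.27% of all genes were; at an unadjusted p under 0.05 the count higher was also 0, and with DESeq2 values and limma it was 0 as well. These counts come from the comparisons that the region was proposed on. They also rest on both libraries of each group. Without osimertinib replicate 1 the osimertinib count was 9, without replicate 2 to 4, without untreated replicate 1 to 11 and without untreated replicate 2 to 10. In the fit without osimertinib replicate 2, 199 of all genes were called lower, against 794 with all libraries. The erlotinib count was 12 without erlotinib replicate 2 and 13 without untreated replicate 2, and the medians of the members stayed below 0 in each of these fits. With all targeting guides in place of non-targeting ones as reference, 1 member was called lower under erlotinib, where 129 of all 17761 genes were, and 2 under osimertinib, where 160 were.

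**Figure D1:**
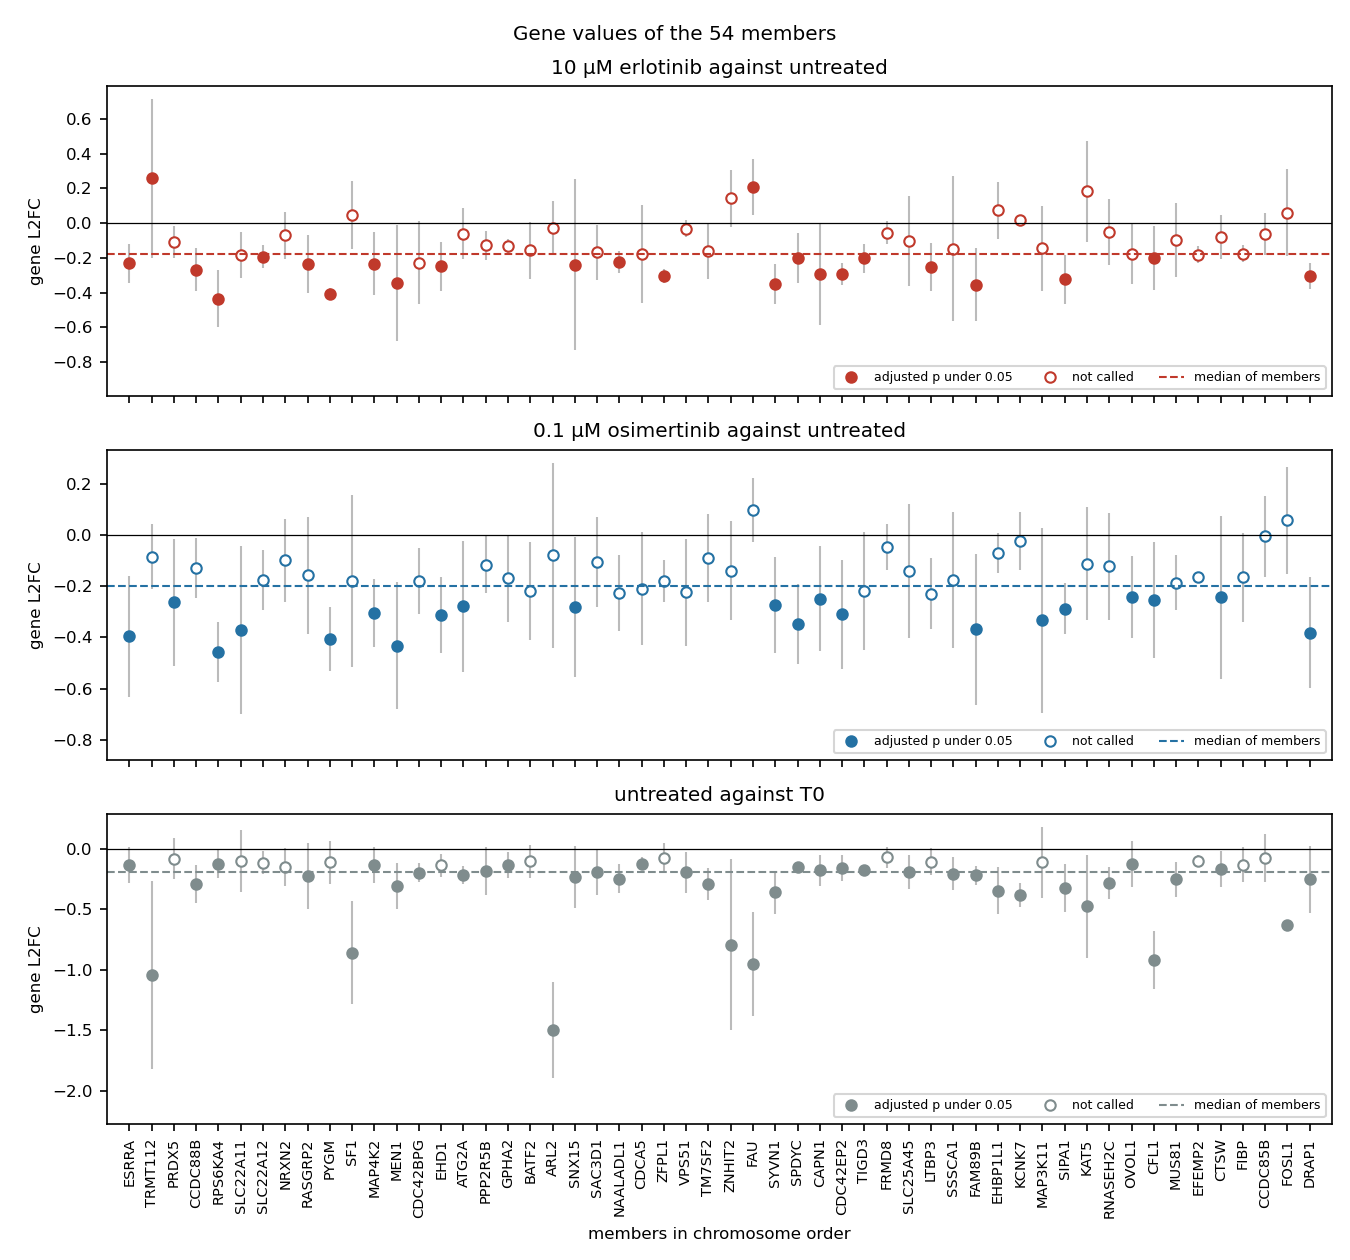
Gene L2FC (vertical axis, log2) of the 54 members in chromosome order for 10 µM erlotinib against untreated, 0.1 µM osimertinib against untreated, and untreated against T0, with bars for the SD between guides, filled points for called genes and a dashed line at the member median. Most points sit below 0 around a median of -0.18 under erlotinib and -0.20 under osimertinib, while a few genes drop far below the rest in the lower plot.

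Single guides are the values from which the gene medians were taken, so they describe the same shift and add no separate support. Of the 209 guides, 165 (78.95%) lay below the non-targeting median under erlotinib and 173 (82.8%) under osimertinib. Of the gene values of all genes, 48.4% and 46.8% lay below it in the same order. Guides were also tested by the quasi-likelihood F-test of edgeR, adjusted over all 67531 kept guides. This test and its direction are set against the scaling of the libraries and not against non-targeting guides. On that scale the non-targeting median was -0.01 under either drug. Under erlotinib 10 member guides passed as lower, where 1.05% of all 67393 targeting guides did, and none as higher, where 1.76% of all did (6 at an unadjusted p under 0.05). Under osimertinib 33 passed as lower, where 2.33% of all did, and none as higher, where 2.41% of all did (4 at an unadjusted p under 0.05). The 10 guides under erlotinib came from CAPN1 and RPS6KA4 with 2 each and from 6 further members with 1 each. Guides to the same gene share their target and are not replicates of a treatment.

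The shift did not end at the edges of the cluster. Tested genes of chromosome 11 were taken outward from the members in blocks of 54. On the centromeric side the blocks numbered 1 to 4 had medians of -0.12, -0.11, -0.13 and -0.09 under erlotinib, and -0.13, -0.14, -0.14 and -0.09 under osimertinib. From block 5 outward the erlotinib medians lay between -0.01 and 0.11, and the osimertinib medians between -0.07, in block 5, and 0.10. On the telomeric side blocks 1 to 4 had medians of -0.14, -0.12, -0.14 and -0.08 under erlotinib, and -0.17, -0.15, -0.16 and -0.04 under osimertinib. Beyond them, blocks 5 to 9 lay between 0.01 and 0.06 under erlotinib and between 0.05 and 0.07 under osimertinib. The members had the lowest median of any block under both drugs, by a margin smaller than the SD between genes within it, which was 0.15 under erlotinib and 0.12 under osimertinib. As the members were chosen by these same values, this rank is a description and was not tested. The 10 other tested genes that lie between members were in no block. Under erlotinib the blocks with medians of -0.08 or lower thus ran from OR4C5 on the centromeric side to PIWIL4 on the telomeric side. Under osimertinib centromeric block 5, from OR4C3 to EXT2, was also low, with a median below that of telomeric block 4. Over the 1117 other genes of the chromosome together the median was -0.02 under either drug.

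**Figure D2:**
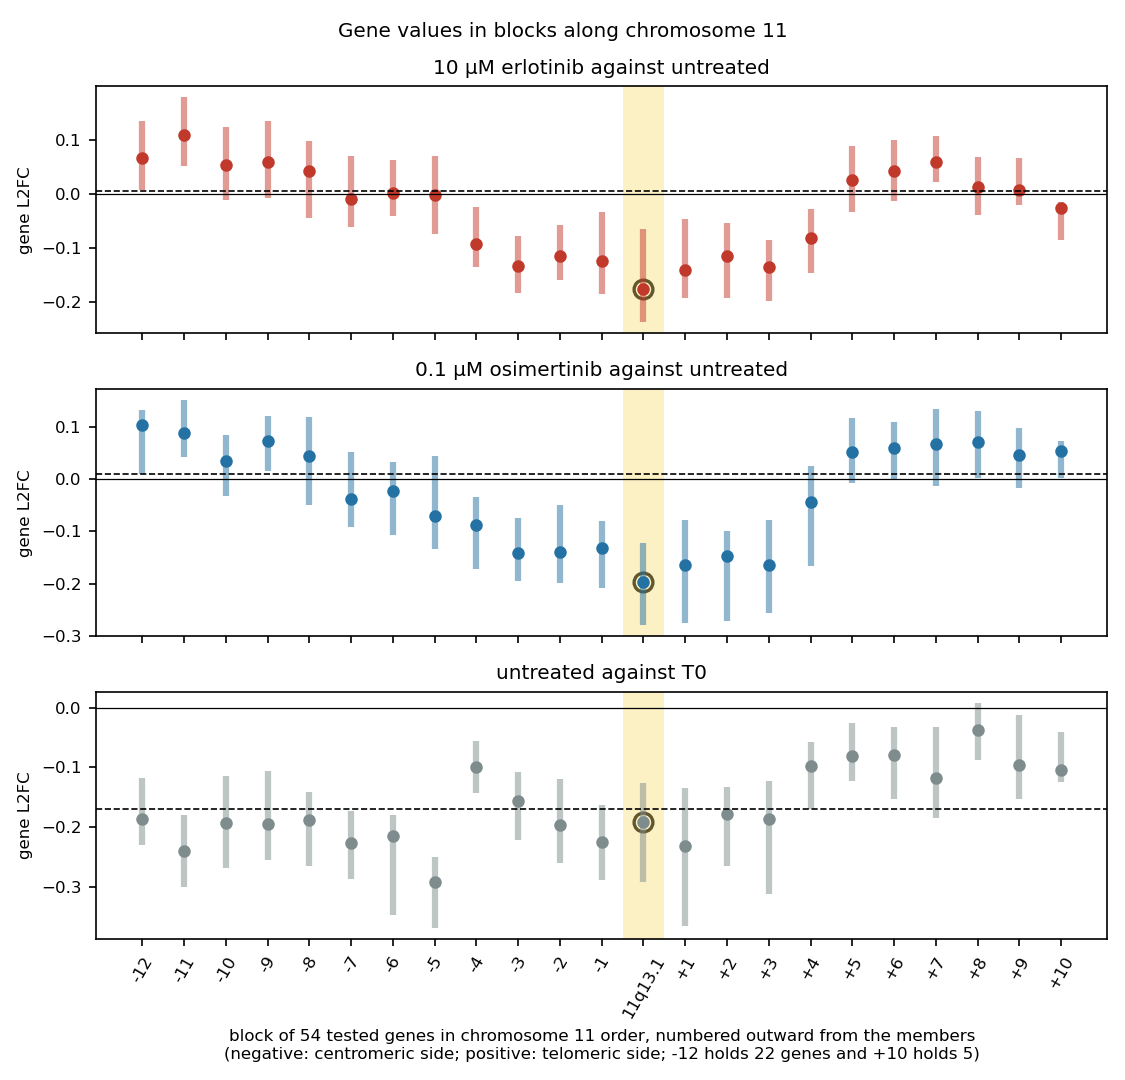
Median gene L2FC (points) with the quartiles (bars) for blocks of 54 tested genes along chromosome 11, numbered outward from the members (shaded), for each drug against untreated and for untreated against T0. The solid line is 0 and the dashed line the median of all genes. Under both drugs a trough with the members at its lowest point covers about 4 blocks on either side. The members were chosen by their values under the drugs, and the 10 other tested genes between them are in no block.

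Olfactory receptor genes, which have no known use in lung cancer cells, were also low as a set in the centromeric blocks near the members. In the 5 centromeric blocks nearest to the members there were 70 olfactory receptor genes, odour sensors of the nose. Their median was -0.11 under erlotinib (11 called lower, where 4.75% of all genes were) and -0.11 under osimertinib (7 called lower, where 4.47% of all genes were). In the centromeric blocks farther out there were 62, with medians of 0.05 and 0.05, and none was called lower under either drug (0 under erlotinib and 2 under osimertinib at an unadjusted p under 0.05). The 19 on the telomeric side had medians of -0.02 under erlotinib and 0.07 under osimertinib. This division of the olfactory receptors was made after their values were seen and was not tested.

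The 10 tested genes that lie between members without being members were also low under osimertinib. Their median was -0.09 under erlotinib, with 3 called lower, and -0.25 under osimertinib, with 6 called lower. Over all genes 4.75% and 4.47% were called lower in the same order. RELA, a subunit of NF-κB, stood at -0.31 ± 0.13 under erlotinib and -0.44 ± 0.18 under osimertinib (SD, n = 4 guides). POLA2, a subunit of DNA polymerase alpha, had 0.14 ± 0.29 under erlotinib and -0.01 ± 0.26 under osimertinib (n = 3 guides), neither of them called.

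Against this common shift, few members stood out. A member counted as standing out when it was called and lay more than 2 scaled median absolute deviations from the member median. Under erlotinib these were RPS6KA4 on the low side and TRMT112 and FAU on the high side, and under osimertinib RPS6KA4 alone. The call is set against non-targeting guides, so the rule leaves out high members that lie close to the non-targeting median. KAT5 (2.82 deviations) and ZNHIT2 (2.49) under erlotinib were also past 2 deviations but not called. So were FAU (2.46) and FOSL1 (2.12) under osimertinib. RPS6KA4 lay at -2.05 under erlotinib and -2.14 under osimertinib. Between T0 and untreated cells, 8 members did.

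RPS6KA4, or MSK2, a kinase that acts below ERK and p38 and phosphorylates histone H3 and CREB, was the lowest member under both drugs. Its level was -0.56 and -0.51 in the erlotinib libraries, -0.68 and -0.45 in the osimertinib libraries, -0.06 and -0.16 in the untreated libraries and -0.00 and 0.00 at T0. All 4 drug libraries lay below both untreated ones. The L2FC was -0.44 ± 0.16 under erlotinib (adjusted p = 0.0024) and -0.46 ± 0.12 under osimertinib (adjusted p = 0.0093; SD, n = 4 guides). All 4 guides were below the non-targeting median under both drugs, and 2 passed the F-test under erlotinib and 4 under osimertinib. In untreated cells against T0 the value was -0.12 ± 0.12, above the median of all genes. The call under each drug held under every alternative tried. Leaving out 1 library gave values between -0.49 and -0.38 under erlotinib and between -0.57 and -0.41 under osimertinib.

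TRMT112 and FAU went the other way under erlotinib. TRMT112 is the shared activator of several tRNA, ribosomal RNA and protein methyltransferases, and its level was -0.64 and -0.89 in the erlotinib libraries, -1.25 and -0.997 in the osimertinib libraries and -0.98 and -0.75 in the untreated libraries. The erlotinib and untreated libraries thus overlapped, although the gene value rose by 0.26 ± 0.46 (SD, n = 4 guides; adjusted p = 0.0067). Its guides spread from -0.22 to 0.85, and the highest had only 48 and 40 reads under erlotinib, 19 and 38 under osimertinib, 12 and 43 in untreated cells and 74 and 102 at T0. None of its guides passed the F-test. Without untreated replicate 1 the value was 0.17 (adjusted p = 0.107), and without untreated replicate 2 it was 0.18 (adjusted p = 0.242), so the call was lost in both.

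FAU encodes a ribosomal protein of the small subunit, joined to a ubiquitin-like protein. Its level was -0.70 and -0.72 in the erlotinib libraries, -0.77 and -0.79 in the osimertinib libraries and -0.91 and -0.95 in the untreated libraries. Both drug groups lay above the untreated group without overlap. The value rose by 0.21 ± 0.16 under erlotinib (SD, n = 4 guides; adjusted p = 0.033) and was 0.10 ± 0.13 under osimertinib, which did not pass (adjusted p = 0.414). The erlotinib call was lost without erlotinib replicate 1 (0.20, adjusted p = 0.055), without erlotinib replicate 2 (0.17, adjusted p = 0.220) and without untreated replicate 2 (0.22, adjusted p = 0.137).

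**Figure D3:**
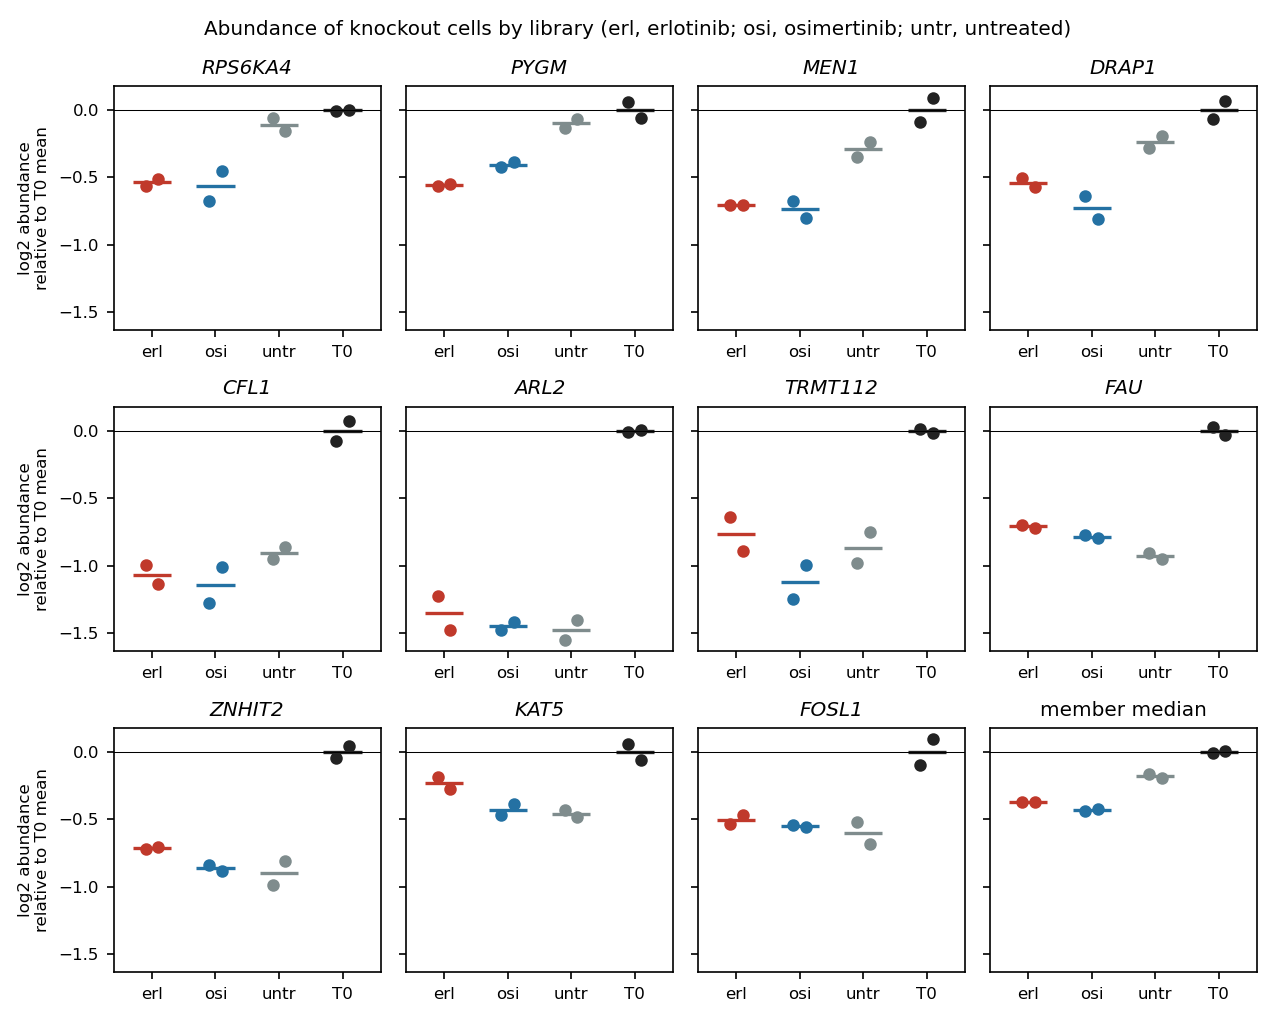
Log2 abundance of knockout cells relative to the T0 mean (vertical axis) in each library (points) with the group mean (line), for 11 members and for the median of all members, in erlotinib, osimertinib, untreated and T0 libraries. RPS6KA4, PYGM, MEN1 and DRAP1 sit lower in all drug libraries than in untreated ones, while FAU sits at -0.70 and -0.72 under erlotinib, above its untreated libraries.

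After RPS6KA4 the lowest members under erlotinib were PYGM, FAM89B, SYVN1 and MEN1, and under osimertinib MEN1, PYGM, ESRRA and DRAP1. PYGM, the glycogen phosphorylase of muscle, had levels of -0.57 and -0.55 in the erlotinib libraries, -0.43 and -0.39 in the osimertinib libraries and -0.14 and -0.06 in the untreated libraries. It fell by 0.41 ± 0.03 under erlotinib and by 0.40 ± 0.13 under osimertinib (SD, n = 3 guides). The drug and untreated libraries did not overlap. Its osimertinib call was lost in every fit that left out 1 library: the value was -0.23 without osimertinib replicate 1 (adjusted p = 0.224), -0.48 without osimertinib replicate 2 (0.058), -0.37 without untreated replicate 1 (0.051) and -0.39 without untreated replicate 2 (0.077).

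MEN1 encodes menin, a partner of histone methyltransferases of the MLL family. Its level was -0.71 and -0.71 in the erlotinib libraries, -0.68 and -0.80 in the osimertinib libraries and -0.35 and -0.23 in the untreated libraries. The groups did not overlap. It fell by 0.34 ± 0.33 under erlotinib and by 0.43 ± 0.25 under osimertinib (SD, n = 4 guides), and 1 of its guides passed the F-test as lower under erlotinib and 3 under osimertinib. Without untreated replicate 2 the erlotinib value was -0.19 (adjusted p = 0.203), and without osimertinib replicate 2 the osimertinib value was -0.39 (adjusted p = 0.056), so neither passed in those fits.

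ESRRA, an orphan nuclear receptor that drives mitochondrial genes, fell by 0.23 ± 0.11 under erlotinib and by 0.39 ± 0.24 under osimertinib (SD, n = 4 guides). The osimertinib call was lost without osimertinib replicate 2 (-0.35, adjusted p = 0.062). DRAP1, a subunit of a repressor of RNA polymerase II transcription, fell by 0.31 ± 0.08 under erlotinib and by 0.38 ± 0.22 under osimertinib. Its osimertinib call was lost without osimertinib replicate 2 (-0.29, adjusted p = 0.082) and without untreated replicate 2 (-0.29, adjusted p = 0.112). SYVN1, the ubiquitin ligase of ER-associated degradation, fell by 0.35 ± 0.12 and 0.27 ± 0.19 in the order erlotinib, osimertinib, and FAM89B fell by 0.35 ± 0.21 and 0.37 ± 0.29.

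By role, the signalling members held the lowest of the larger groups. The median of the 9 kinases and other signalling genes was -0.23 under erlotinib (5 called lower) and -0.29 under osimertinib (5 called lower). For this and the role groups that follow, the counts stand beside 22 of all 54 members under erlotinib and 21 under osimertinib. Over all genes the shares called lower were 4.75% and 4.47%. Differences between role groups were not tested. Besides RPS6KA4 these include MAP4K2, a kinase above JNK, which fell by 0.23 ± 0.18 under erlotinib and by 0.30 ± 0.13 under osimertinib. SIPA1, which switches off the small GTPase RAP1, fell by 0.32 ± 0.14 and 0.29 ± 0.10 in the same order, and CDC42EP2, an effector of CDC42, fell by 0.29 ± 0.06 and 0.31 ± 0.21. MAP3K11, or MLK3, a kinase of the JNK pathway, fell by 0.33 ± 0.36 under osimertinib and had -0.15 ± 0.24 under erlotinib, which did not pass. RASGRP2, an exchange factor for RAP1 in platelets, fell by 0.24 ± 0.17 under erlotinib and had -0.16 ± 0.23 under osimertinib, which did not pass. CDC42BPG, PPP2R5B, a subunit of phosphatase PP2A, and FIBP passed under neither drug, with values between -0.23 and -0.11.

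The 13 members with a tissue-restricted function, most of them with no known use in lung cancer cells, were as low as the cluster as a whole. Their median was -0.19 under erlotinib (7 called lower) and -0.22 under osimertinib (4 called lower). SLC22A11 and SLC22A12, anion and urate carriers of the kidney, had -0.18 ± 0.13 and -0.19 ± 0.07 under erlotinib, of which only SLC22A12 was called, and -0.37 ± 0.33 and -0.17 ± 0.12 under osimertinib, of which only SLC22A11 was called. CCDC88B, a protein of immune cells, fell by 0.27 ± 0.12 under erlotinib, NAALADL1, a peptidase of the gut, by 0.22 ± 0.06 and TIGD3, derived from a transposase, by 0.20 ± 0.08, and none of these passed under osimertinib. SPDYC, of the Speedy family of cyclin-dependent kinase activators, fell by 0.20 ± 0.14 under erlotinib and by 0.35 ± 0.16 under osimertinib. CTSW, a cathepsin of cytotoxic lymphocytes, fell by 0.24 ± 0.32 under osimertinib and had -0.08 ± 0.13 under erlotinib, which did not pass. NRXN2, a synaptic adhesion protein, GPHA2, a glycoprotein hormone subunit, BATF2, a transcription factor of immune cells, and KCNK7, a potassium channel subunit, passed under neither drug, with values between -0.22 and 0.02.

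Trafficking members were split. Their median was -0.06 under erlotinib (4 of 9 called lower) and -0.22 under osimertinib (4 of 9 called lower). EHD1, which recycles receptors from endosomes, fell by 0.25 ± 0.14 and 0.31 ± 0.15 in the order erlotinib, osimertinib. SNX15, a sorting nexin, fell by 0.24 ± 0.49 and 0.28 ± 0.28 in the same order. Its erlotinib and untreated libraries overlapped, and under erlotinib its guides ran from -0.31 to 0.715, with none passing the F-test. ZFPL1, a Golgi protein, fell by 0.31 ± 0.04 under erlotinib, and ATG2A, which transfers lipids to the growing autophagosome, fell by 0.28 ± 0.26 under osimertinib. VPS51, of a tethering complex of the Golgi, FRMD8, which stabilises the iRhom partners of a growth factor sheddase, EHBP1L1 and ARL2 passed under neither drug, and their values ran from -0.22 to 0.07. EHBP1L1 and FRMD8 were among the members nearest to 0, at 0.07 ± 0.16 and -0.06 ± 0.07 under erlotinib.

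Of the other groups, the 7 metabolic and transport genes had medians of -0.16 under erlotinib and -0.17 under osimertinib, with PRDX5, a peroxiredoxin, at -0.11 ± 0.09 and -0.26 ± 0.25, the second of them called. TM7SF2, a sterol reductase, and SLC25A45, a mitochondrial carrier, passed under neither drug. No member of the 4 DNA repair and chromosome genes (SAC3D1, CDCA5, RNASEH2C and MUS81) was called in the drug comparisons by the empirical p (2 lower under each drug when unadjusted), with medians of -0.13 under erlotinib and -0.15 under osimertinib. Of CDCA5, or sororin, which holds sister chromatids together, 1 guide passed the F-test as lower under each drug. LTBP3, which binds latent TGF-β, fell by 0.25 ± 0.14 under erlotinib, while EFEMP2, or fibulin-4, had -0.18 ± 0.05 under erlotinib and did not pass. CAPN1, a calcium-dependent protease, fell by 0.30 ± 0.29 and 0.25 ± 0.21 in the order erlotinib, osimertinib, and SSSCA1 passed under neither. The 8 transcription and chromatin genes had medians of -0.17 under erlotinib (3 called lower) and -0.23 under osimertinib (4 called lower). Of these OVOL1, an epithelial repressor, fell by 0.24 ± 0.16 under osimertinib. After FAU, the members highest under osimertinib were FOSL1 at 0.06 ± 0.21, CCDC85B at -0.00 ± 0.16, KCNK7 at -0.02 ± 0.11 and FRMD8 at -0.04 ± 0.09, none of them called.

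Between T0 and untreated cells the cluster as a whole stood close to all genes, while 8 of its members dropped far below it. The median of the members was -0.19 and that of all genes -0.17, and 31 of 54 members lay below the median of all genes. Because the typical targeted gene had itself shifted by -0.17 relative to non-targeting guides, 40 members were called lower where 65.6% of all genes were, and none higher where 0.152% were (0 also at an unadjusted p under 0.05 and with DESeq2 values and limma). Of all members, 51 were lower in both untreated libraries than in both T0 libraries (background 77.8%) and none was higher (background 1.23%). Relative to all targeting guides 5 members were called lower, where 501 of all 17761 genes were. Without untreated replicate 2 the count of 40 became 26, and that over all genes was 7567, against 11648 with all libraries.

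ARL2, a small GTPase of tubulin folding and mitochondria, was lost most. Its level was -1.22 and -1.48 in the erlotinib libraries, -1.48 and -1.42 in the osimertinib libraries, -1.56 and -1.40 in the untreated libraries and -0.01 and 0.01 at T0. It fell by 1.50 ± 0.40 in untreated cells against T0 (SD, n = 4 guides; adjusted p = 4.7e-04, which many genes share as the smallest that 10000 draws can give), and all 4 of its guides passed the F-test. Against untreated cells it had -0.03 ± 0.16 under erlotinib and -0.08 ± 0.36 under osimertinib, neither of them called.

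TRMT112 fell by 1.04 ± 0.78, FAU by 0.95 ± 0.43, CFL1 by 0.92 ± 0.24, SF1 by 0.86 ± 0.42 and ZNHIT2 by 0.79 ± 0.71 in untreated cells against T0 (SD, n = 4 guides each). CFL1 is cofilin, which severs actin filaments, SF1 recognises the intron branch point in splicing, and ZNHIT2 helps assemble splicing complexes. FOSL1, the AP-1 subunit FRA1, fell by 0.63 ± 0.02 and KAT5, the acetyltransferase TIP60, by 0.48 ± 0.43. The level of CFL1 was -0.99 and -1.14 in the erlotinib libraries, -1.28 and -1.01 in the osimertinib libraries, -0.95 and -0.86 in the untreated libraries and -0.07 and 0.07 at T0. Each of these calls held in every fit that left out 1 library. With all targeting guides as reference ZNHIT2 (-0.62, adjusted p = 0.058), FOSL1 (-0.46, adjusted p = 0.106) and KAT5 (-0.30, adjusted p = 0.263) no longer passed. All 4 guides of ARL2 and CFL1 passed the F-test, 3 of SF1 and of ZNHIT2, and 2 each of TRMT112, FAU, FOSL1 and KAT5. In all, 23 member guides passed as lower, where 5.93% of all guides did, and 1, of PPP2R5B, as higher, where 1.19% did. The F-test is set against the scaling of the libraries, on which the non-targeting median was 0.18 in untreated against T0. These guide counts are thus not on the same footing as genes called against non-targeting guides.

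TRMT112 and PRDX5, whose promoter windows overlap, had unlike values in untreated cells. TRMT112 fell by 1.04 in untreated cells against T0, whereas its neighbour PRDX5 had -0.08 ± 0.17, which did not pass. Both were lower in both osimertinib libraries than in both untreated ones. Knockout abundance is no measure of promoter use.

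**Figure D4:**
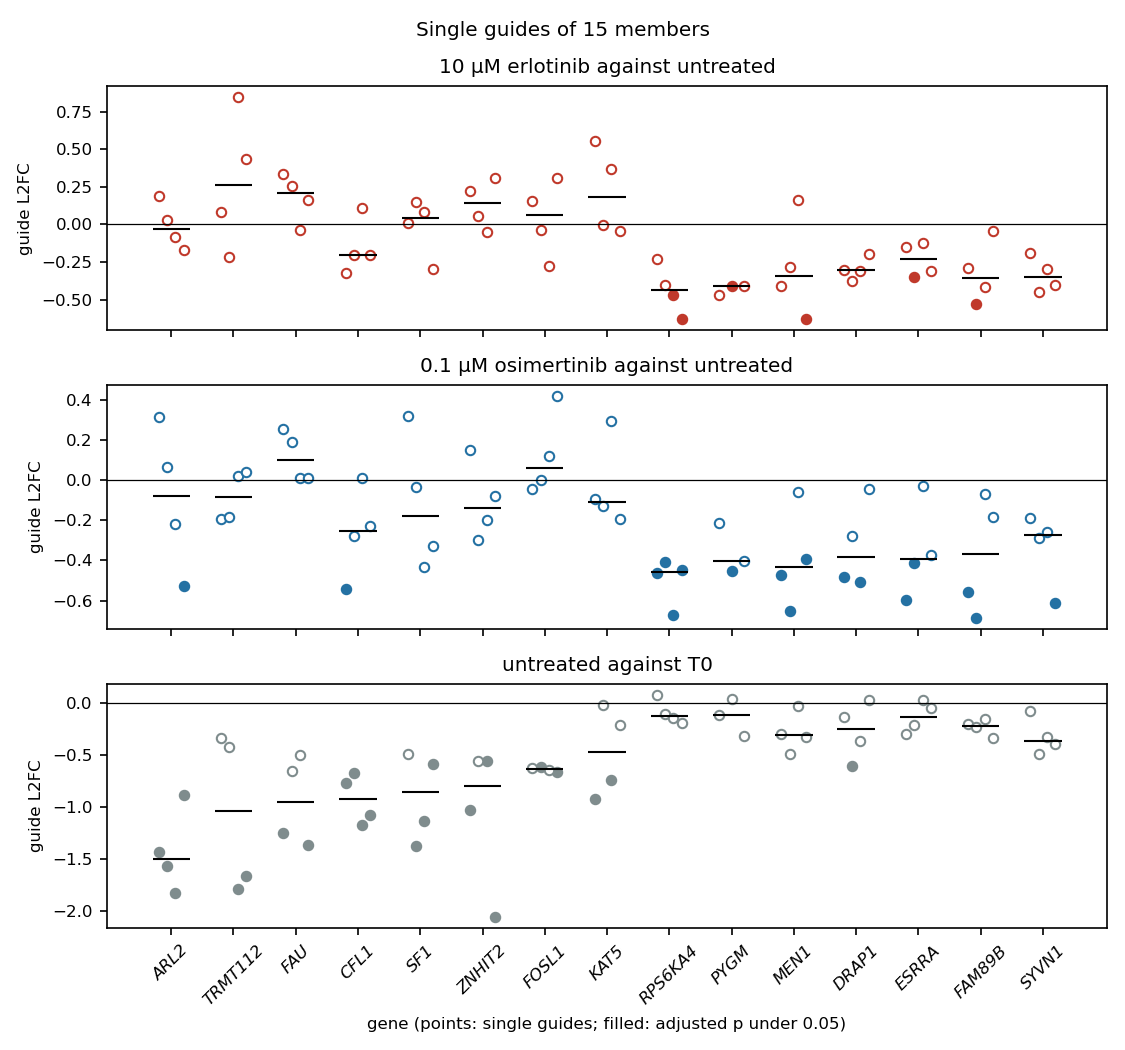
L2FC of single guides relative to non-targeting guides (vertical axis) for 15 members in the same 3 comparisons, with a line at the gene median. Filled points are guides that passed the F-test, which is set against the scaling of the libraries and not against non-targeting guides. All 4 guides of ARL2 and CFL1 lie low in untreated against T0, and all 4 of RPS6KA4 lie low under both drugs, while the guides of TRMT112 spread widely.

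The growth machinery list, of TRMT112, SF1, CDCA5, ZNHIT2, FAU, KAT5, CFL1 and DRAP1, had the lowest median of any role group in untreated cells against T0. Its median was 0.09 under erlotinib (2 called lower, 2 higher), -0.16 under osimertinib (2 called lower) and -0.83 in untreated cells against T0 (8 called lower). Over all genes 4.75% were called lower and 6.46% higher under erlotinib, 4.47% lower under osimertinib and 65.6% lower in untreated cells against T0. The 46 members outside the growth machinery list had medians of -0.18, -0.22 and -0.18 in the same order. The genes of this list that were called lower under both drugs were CFL1, which fell by 0.20 ± 0.18 under erlotinib and by 0.25 ± 0.23 under osimertinib, and DRAP1. ZNHIT2 and KAT5 had 0.14 ± 0.16 and 0.18 ± 0.29 under erlotinib, neither of them called, and SF1 had 0.04 ± 0.20. The list was drawn up with earlier results of these libraries known, and its difference from the other members was not tested.

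The drugs were also set directly against each other, at their unequal doses. The median member was 0.04 higher under erlotinib than under osimertinib, and that of all genes was -0.00. None of the members was called lower, where 0.462% of all genes were (1 at an unadjusted p under 0.05, 0 with DESeq2 values and 0 with limma), and 1 was called higher, where 1.68% of all genes were (12 members and 1576 of all genes at an unadjusted p under 0.05). The called member was TRMT112, at 0.34 ± 0.36 (SD, n = 4 guides; adjusted p = 0.021), with both erlotinib libraries above both osimertinib ones. The call was lost without erlotinib replicate 1 (0.32, adjusted p = 0.102) and without osimertinib replicate 1 (0.20, adjusted p = 0.406), and without osimertinib replicate 2 the value was 0.51. Of all members, 20 were higher in both erlotinib libraries than in both osimertinib ones (background 24.4%) and 3 were lower (background 15.8%). RPS6KA4 did not pass (0.10 ± 0.19, adjusted p = 0.442).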

How the data were processed

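Guide abundance was measured in 8 libraries of PC9-Cas9 cells, 2 in each of 4 groups. The authors deposited raw counts per guide; per the labels, inserts were amplified by PCR, with no molecular identifiers, and aligned to the library. As aligner, the methods name Bowtie2, whereas the submitters' processing notes name Bowtie 1.3.1. Precision from read counts covers counting error only. Of 50 gene names that a spreadsheet had turned into amounts of money, among them ARL2, 49 were restored through RefSeq symbols and 1, with 4 guides, was left out.

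The 5% of guides with the lowest mean count after scaling (under 46 reads) were removed, which kept 67531, of which 138 were non-targeting. A quasi-likelihood model with TMM scaling was fitted to all 8 libraries with edgeR 4.0.16 under R 4.3.3, at a common dispersion of 0.00537 and with 4 residual degrees of freedom. Following the methods, guide values were collapsed to a median over at least 2 guides. Two-sided empirical p-values came from 10000 draws of non-targeting guides (smallest p 1e-04) and were adjusted (Benjamini-Hochberg, threshold 0.05) over 17761 genes. Replicates of a group correlated with r between 0.964 and 0.977 over guides and differed beyond counting noise. Scripts were tested on simulated data.

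The members and lists were chosen with earlier results of these data known. Named in full are members that stand out, the 5 highest and 5 lowest under each drug and the 5 lowest in untreated against T0. Alternatives were DESeq2 1.42.0 values, no filter on low counts, the mean over guides, all targeting guides as reference, limma 3.58.1 on gene levels, a replicate block and leaving out each library; limma on levels centred by guide was added after seeing the data.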

Additional observations from a re-analysis of the deposited data

Results flagged for a closer look

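TRMT112 was the one member whose response differed between the drugs by a direct contrast. Its value under erlotinib against osimertinib was 0.34 (SD between guides 0.36, n = 4; adjusted p = 0.021), against untreated cells it was 0.26 under erlotinib and -0.08 under osimertinib, and the doses differ. Its guides ran from -0.03 to 0.83 in this contrast, 3 of 4 above 0, and none passed the F-test, whereas 1 guide of VPS51 did. The call was lost without erlotinib replicate 1 (0.32, adjusted p = 0.102) and without osimertinib replicate 1 (0.20, adjusted p = 0.406).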

How the results depend on the processing

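No result changed direction under the alternatives tried. Among the 21 named calls, 21 held with DESeq2 values, with the mean over guides, without the filter on low counts and with the replicate block; 8 held with all targeting guides as reference, 12 with limma on gene levels and 18 with limma on guide-centred levels. With all targeting guides as reference, members called lower numbered 5 in untreated against T0, 1 under erlotinib and 2 under osimertinib, none was called higher under erlotinib or between the drugs, and the median of untreated against T0 was -0.0173. With limma on gene levels the medians were -0.25 in untreated against T0, -0.10 under erlotinib, -0.16 under osimertinib and 0.0635 between the drugs, with 3 called lower and 0 higher under erlotinib (195 and 796 of all 17761 genes), 7 lower under osimertinib (480 of all genes) and 0 higher between the drugs (80 of all genes). With limma on guide-centred levels, 11 were called lower and 0 higher under erlotinib (399 and 867 of all genes; median -0.14), 21 lower under osimertinib (858 of all genes) and 0 higher between the drugs (200 of all genes; median 0.0705). The mean over guides gave medians of -0.15 under erlotinib and 0.0326 between the drugs, with 4 called higher between the drugs, where DESeq2 values and no filter gave 2 each.

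Leaving out 1 library at a time, members called lower numbered 26 to 32 in untreated against T0, 12 to 18 under erlotinib and 4 to 11 under osimertinib, and those called higher 0 to 2 under erlotinib and 0 to 2 between the drugs. The medians ranged from -0.20 to -0.16 in untreated against T0, from -0.17 to -0.13 under erlotinib, from -0.22 to -0.15 under osimertinib and, between the drugs, from 0.0448 to 0.0831. These fits leave 1 library in a group, whose spread is taken from the other groups. Replicate numbers did not pair the libraries: deviations of same-numbered libraries correlated with r between -0.003 and 0.0099 across guides. With the replicate block 39 members were called lower in untreated against T0 (11665 of all 17761 genes). Under erlotinib 22 were called lower (833 of all genes) and 2 higher (1136 of all genes), and under osimertinib 21 lower (794 of all genes). Depth was lowest in the erlotinib libraries, at 32096281 and 32673742 reads, against 34894824 to 39200466 in the others. With 2 libraries a group the spread between cultures is poorly known.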
